A study of Homo sapiens with 9 samples.

Results

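The comparison set 3 libraries of N/TERT keratinocytes with an SGPL1 knockout (KO) against 3 libraries of N/TERT keratinocytes that overexpressed SGPL1 (OE), which are the ends of the SGPL1 range in the series. The libraries were chosen by their titles and genotype labels, SGPL1 KO and SGPl1 OE, and made up 6 of the 9 libraries of the study. The other 3, labelled WT, are named below as the control level and entered no test. N/TERT cells are human epidermal keratinocytes made immortal by telomerase, and all cells were untreated. The study's title concerns the scaling skin disease of sphingosine-1-phosphate lyase deficiency, calcium and sphingolipids. The knockout was made with CRISPR. The number of clones behind the libraries of a group, the guide, and the promoter or vector of the overexpressed gene are not given in the sources used here. By the submitters' design text each group has 3 biological replicates. Nothing given says that they came from separately made lines, so the p values below measure the spread between these libraries.

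Sphingosine-1-phosphate (S1P) is a signalling lipid made from sphingosine by sphingosine kinases. S1P lyase, the product of SGPL1, sits in the endoplasmic reticulum and splits S1P irreversibly into phosphoethanolamine and a long-chain aldehyde, which is the only exit from the sphingolipid pathway. The alternative route is the removal of the phosphate by S1P phosphatases, which returns sphingosine to ceramide synthesis. Ceramides are a main lipid of the skin barrier, and S1P acts on keratinocytes through S1P receptors and calcium stores.

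Counts summed to 6317564 to 9410555 in the KO libraries and 8773822 to 13330479 in the OE libraries. Of 60671 genes listed, 12984 had enough counts to be tested across the 6 libraries. The log2 values of libraries correlated across genes at r = 0.979 to 0.985 within a group and 0.911 to 0.931 between groups, and a first principal component with 74.3% of the variance separated KO from OE. Keratinocyte markers such as KRT5, KRT14, TP63 and ITGA6 were abundant in both groups. The 11 fibroblast markers summed to 85.8 to 94.9 counts per 1e6 counts (CPM) in KO and 93.6 to 97.1 CPM in OE, with COL3A1, LUM and POSTN at 0 in both. Most of this was FAP, at 73.3 CPM in KO and 67.3 CPM in OE. COL1A1 was lower in KO (11.1 and 25.9 CPM) and ACTA2 higher (5.66 and 1.45 CPM). The 9 melanocyte markers summed to 69.4 to 77.8 CPM and 60.6 to 71.2 CPM, mostly from MITF (71.0 and 62.4 CPM), with TYR, DCT, SOX10 and EDNRB at 0. The 18 blood, endothelial and immune markers summed to 6.83 to 10.5 CPM in KO and 1.77 to 2.18 CPM in OE, mostly from CD14, and PTPRC, CD3E, LYZ and PECAM1 were at 0. The part of other cell types in the results was not tested further. In RNA from whole cultures, fewer cells of a type and less RNA per cell cannot be told apart.

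The level of SGPL1 (ENSG00000166224, on the plus strand of chromosome 10 from 70815948 to 70881184 in GRCh38) followed the labels. KO libraries had 58.7, 58.2 and 61.4 CPM and OE libraries 1130.4, 1102 and 927 CPM. The groups were far apart, and the control level of 92.3 ± 7.54 CPM (SD, n = 3 libraries, as for every ± on CPM below) lay near the KO end. The log2 difference of KO minus OE was -4.15 ± 0.11 (standard error, as for every ± on log2 differences), a 17.8-fold difference, with an edgeR adjusted p of 3.06e-15. The KO libraries thus still held SGPL1 transcript, and a count over all exons does not show whether the encoded protein is intact.

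At an adjusted p under 0.05, 7355 genes (56.6% of those tested) differed between KO and OE. Of these, 3658 (28.2%) were higher in KO and 3697 (28.5%) were lower, and these shares are the background against which the gene groups below are read. A difference of at least 2-fold was found for 1232 genes higher in KO (9.49%) and 1135 lower (8.74%). In 7060 of the 7355 genes the KO and OE libraries did not overlap. Among all tested genes, 31.1% had every KO library above every OE library and 31.5% had every one below. The control mean lay between the KO and OE means for 4899 of the 7355 genes (66.6%), beyond the OE mean for 2089 (28.4%) and beyond the KO mean for 367 (4.99%). On a scale of log2(CPM + 0.5) it was nearer to OE than to KO for 5687 of them (77.3%).

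The difference between KO and OE followed gene length. Genes were split into deciles by exon length, which is the summed length of a gene's exons in the count files. In the shortest decile, with a median length of 1220 bases, the median log2 difference was 0.53, and 47.3% of genes were higher in KO and 7.70% lower. The medians then fell from decile to decile down to -0.41 in the longest, with a median length of 13595 bases, where 13.5% were higher and 51.0% lower. Across genes, which are not independent replicates, Spearman's rho of the log2 difference was -0.312 with exon length and -0.167 with GC content over the 12945 genes that had one. The shortest decile took 9.02% to 9.73% of counts in KO libraries and 6.13% to 7.23% in OE libraries, and the longest decile 7.71% to 8.11% and 10.8% to 12.5%. In the control libraries these shares were 7.1% to 7.45% and 11.5% to 12.2%, nearer to OE than to KO.

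All 3 KO libraries sloped the same way. Per doubling of exon length, the log2 level relative to the mean of the 6 libraries changed by -0.12, -0.095 and -0.122 in KO libraries 1 to 3 and by 0.143, 0.156 and 0.039 in OE libraries 1 to 3. On this scale the averages of KO and OE are opposite by construction, so these slopes do not show which group departs. The groups did not overlap (exact two-sided permutation p = 0.1, the smallest that 3 against 3 can give), and OE library 3 had a shallower slope than the other OE libraries. Without OE library 3, the medians of the shortest and longest decile were 0.66 and -0.47. The source of the trend, in the cells or in the RNA and libraries, was not tested. Counts over gene lists below are therefore given both as counted and after a smooth trend over exon length had been removed from every library. Differences of single genes are as counted unless said otherwise. Removal brought the medians of the outer deciles to 0.05 and -0.00.

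**Figure D1:**
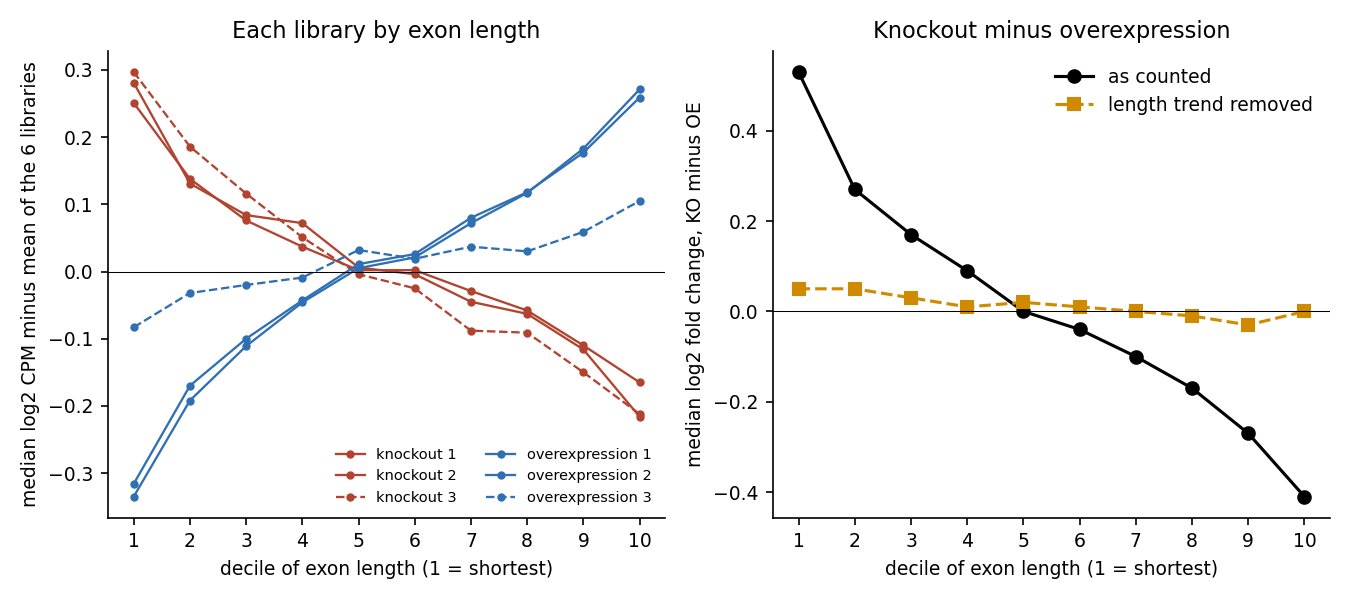
Left, the median log2 CPM of genes in each decile of exon length relative to the mean of the 6 libraries, 1 line per library (library 3 dashed). Right, the median log2 difference of KO minus OE per decile, as counted (circles, from 0.53 to -0.41) and with the length trend removed (squares, all close to 0). KO lines slope down and OE lines slope up, least so in OE library 3.

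Removing the trend left the number of differing genes similar, with 3706 higher in KO (28.5%) and 3421 lower (26.3%). In all, 6131 genes passed in the same direction both ways, 3124 higher (24.1%) and 3007 lower (23.2%), and 4 passed in opposite directions. A further 1220 passed only as counted and 992 only with the trend removed. SGPL1 itself differed by -4.00 with the trend removed.

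Protein-coding genes with the largest rise in KO were genes that OE libraries hardly expressed. RCSD1, which binds an actin capping protein, led with 6.86, 7.61 and 6.41 CPM in KO against 0.442, 0 and 0.0728 CPM in OE, a log2 difference of 5.38 ± 0.57 (adjusted p = 2.28e-07). AOC1, a secreted diamine oxidase, followed with 11.8 ± 1.36 CPM against 0.323 ± 0.246 CPM (5.20 ± 0.41, adjusted p = 5.02e-09). The glycine cleavage enzyme GLDC had 30.3, 27.3 and 26.2 CPM against 0.663, 1.21 and 1.24 CPM (4.70 ± 0.24, adjusted p = 2.97e-11). These values rest on few OE reads, 5 in all for RCSD1 and 10 for AOC1. The log2 difference rose to 6.97 for RCSD1 without OE library 1 and to 5.96 for AOC1 without OE library 2, so the order among the leading genes is uncertain. The leading genes were chosen to have no overlap between KO and OE libraries. In all 3 genes every KO library was also above the control mean, which was 1.94, 2.57 and 3.34 CPM.

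The next 7 in that order differed by 4.08 to 4.32. IL33, an alarmin cytokine of barrier epithelia, averaged 16.1 ± 0.735 CPM in KO and 0.768 ± 0.324 CPM in OE (log2 difference 4.32). HOPX, a homeobox protein of differentiating epidermis, averaged 37.5 ± 4.91 and 1.89 ± 0.593 CPM (4.28). PADI3 and PADI4, enzymes that convert arginine to citrulline in proteins, differed by 4.20 and 4.10, and CLCA4 by 4.15. BCAS1 (4.24) and the extracellular superoxide dismutase SOD3 (4.08) completed the 10. Without 1 OE library the difference rose to 5.60 for BCAS1 (library 3) and 5.15 for PADI4 (library 2). For SOD3 and BCAS1 the control level, 22.6 and 5.53 CPM, was close to that of KO (22.3 and 5.87 CPM), and for the other 8 it lay between the groups. Passing in the same direction with the length trend removed was a condition for these 10, and their differences there were 3.79 to 5.53.

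The steepest falls in KO were genes with almost no reads there. ARMCX1, an X-linked armadillo-repeat gene (chromosome X, 101550547 to 101554700), had 0 reads in every KO library but 13.3, 11.3 and 8.52 CPM in OE, 349 reads in all. Against the 3 reads that a count of 0 allows over the group, it was at least 82.4-fold lower in KO (adjusted p = 7.72e-09). Its neighbour ARMCX4 also had 0 reads in KO and 119 in OE, at least 28.1-fold lower. PEG10 and SGCE are adjacent, paternally expressed imprinted genes (chromosome 7, 94656325 to 94669695 and 94524204 to 94656572). PEG10 had 0.241, 0 and 0 CPM in KO and 15.4, 18.2 and 16.2 CPM in OE, a ratio of 192 on 2 against 542 reads (95% counting interval 52.9 to 1590). SGCE had 0 reads in KO against 173 in OE, at least 40.8-fold lower. The control means of PEG10 and SGCE were 1.95 and 0.285 CPM, between the groups. The 2 genes overlap by coordinates, and the counting is not stated to use strand, so their reads are not fully separate.

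Other large falls were TBL1X, a subunit of a corepressor complex (2 against 345 reads, ratio 122, 33.6 to 1010), NID2, a basement membrane protein (2 against 233 reads, ratio 82.5, 22.6 to 685), and the collagen hydroxylase family member P3H3 (3 against 202 reads, ratio 47.7, 16.1 to 233). For NID2 the control mean of 7.24 CPM was close to that of OE (7.22 CPM). FHL1 (-5.08 ± 0.36), the cyclic nucleotide phosphodiesterase PDE1C (-4.62 ± 0.25), the microtubule-associated protein MAP1B (-4.32 ± 0.30) and the ubiquitin ligase MARCHF4 (-4.28 ± 0.36) also had few reads in KO, for example 8 in all for FHL1 and 14 for MARCHF4. Conversely, PLA2G2A, a secreted phospholipase named after its values were seen, had 85 reads in KO and 0 in OE, at least 40.0-fold higher.

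**Figure D2:**
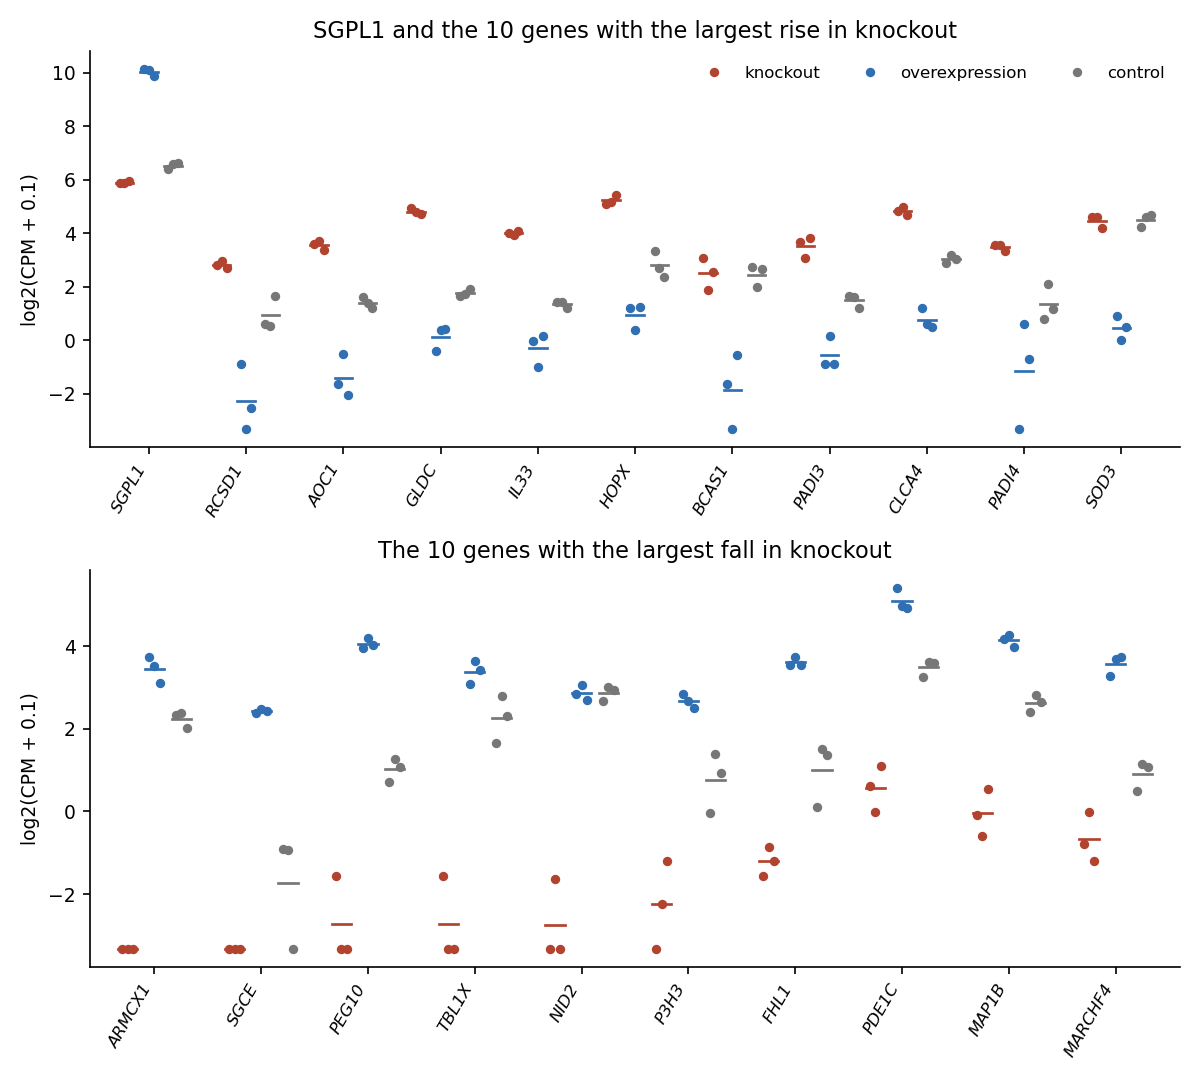
Each point is a library, at log2(CPM + 0.1), and each bar is the mean of 3 libraries of KO (red), OE (blue) or control (grey). Top, SGPL1 and the 10 genes with the largest rise, such as RCSD1 at 6.41 to 7.61 CPM in KO and 0 to 0.442 CPM in OE. Bottom, the 10 genes with the largest fall, where points at the floor are libraries with 0 reads, as for ARMCX1 and SGCE in all 3 KO libraries.

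In absolute CPM, the largest gains in KO included translation genes and the largest losses included keratins. EEF1A1, the elongation factor that brings aminoacyl-tRNA to the ribosome, took the largest share of counts in each KO library, with 23567, 26659 and 25251 CPM against 9519.6, 9058 and 9889 CPM in OE (1.40 ± 0.10). KRT5, the basal keratin, took the largest share in each OE library, with 6436, 5608 and 5473 CPM in KO and 10831, 10387 and 11156 CPM in OE (-0.89 ± 0.10). Its partner KRT14 averaged 2923 ± 109 CPM in KO and 7185 ± 528 CPM in OE (-1.30), and the wound keratin KRT6A 2353 ± 231 and 8282 ± 663 CPM (-1.82). RPLP0, RPL13A, RPL8, the hair keratin KRT81 and glutamine synthetase GLUL gained 1.28 to 1.63 on the log2 scale, while FN1 and ACTB differed by -2.30 and -0.85. All of the genes named here passed in the same direction with the length trend removed. Reads of EEF1A1, the ribosomal protein genes, KRT6A and KRT81 could be shared with near-identical copies, so these levels are uncertain.

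Genes of sphingolipid metabolism were more often higher than lower in KO. Of 47 tested, 22 were higher and 6 lower, with a median of 0.26 beside -0.003 for all genes (25 higher, 6 lower and 0.31 with the length trend removed). Ceramidases, which release sphingosine from ceramide, were among the higher ones. ASAH1, the acid ceramidase, had 274, 278 and 283 CPM in KO and 134, 126 and 139 CPM in OE (1.06 ± 0.09, adjusted p = 6.84e-09), and the Golgi ceramidase ACER2 had 16.4, 22.2 and 18.6 CPM against 2.32, 4.12 and 2.33 CPM (2.71 ± 0.25, adjusted p = 3.67e-08). Neither gene's groups overlapped. CERS3, the synthase of very long barrier ceramides and an ichthyosis gene, averaged 53.7 ± 0.508 and 29.7 ± 7.79 CPM (0.86). Its control mean of 50.8 CPM was close to KO, while those of ASAH1 (163 CPM) and ACER2 (5.90 CPM) lay nearer to OE. SMPD4, a neutral sphingomyelinase, fell from 133 ± 9.34 CPM in OE to 61.8 ± 2.71 CPM in KO (-1.10).

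Enzymes that lie near S1P in the pathway did not all differ in the same direction as counted. SGPP1, an S1P phosphatase, had 152, 145 and 117 CPM in KO and 63.3, 56.2 and 63.6 CPM in OE (1.17 ± 0.11, adjusted p = 3.66e-08), and the groups did not overlap. ALDH3A2, which oxidises the lyase's long-chain aldehyde and is mutated in the ichthyosis of Sjögren-Larsson syndrome, averaged 207 ± 9.89 and 134 ± 6.36 CPM (0.63 ± 0.09, 1.06 with the length trend removed). SPHK2, a sphingosine kinase, had 9.14, 8.62 and 8.95 CPM in KO and 17.3, 14.2 and 16.1 CPM in OE (-0.84 ± 0.18, adjusted p = 7.68e-04). That call was lost when GC content was removed together with length (-0.39). SPHK1 had 2.89, 7.61 and 3.88 CPM in KO and 6.30, 7.04 and 8.74 CPM in OE, which overlapped (adjusted p = 0.107). Without KO library 2, SPHK1 differed by -1.15 (adjusted p = 0.00763). UGCG, which makes glucosylceramide, averaged 85.8 and 76.3 CPM without passing (adjusted p = 0.143).

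None of the 4 S1P receptors tested, S1PR1, S1PR2, S1PR3 and S1PR5, differed in edgeR, where 0 had an unadjusted p under 0.05, or in DESeq2 or limma-voom. S1PR2 averaged 3.92 ± 1.35 CPM in KO and 4.66 ± 0.706 CPM in OE (adjusted p = 0.554), S1PR3 20.6 ± 4.31 and 24.8 ± 4.43 CPM (adjusted p = 0.236), and S1PR5 35.2 ± 1.13 and 33.7 ± 6.78 CPM (adjusted p = 0.729), and the groups overlapped in each. Of 10 receptors and exporters, ABCG2 was higher (0.96) and ABCC1 (-0.65) and the lysolipid transporter MFSD2A (-1.11) were lower. With the length trend removed 2 were higher and 2 lower, the cholesterol exporter ABCA1 being the gene gained (0.36, adjusted p = 0.0889, then 0.70, adjusted p = 9.76e-04), and with GC content removed as well 3 were higher and 2 lower. Without KO library 3, ABCA1 also passed as counted (0.50). Enzymes of phosphatidylethanolamine and phosphatidylcholine synthesis, the pathway that receives the lyase's phosphoethanolamine, had 6 of 12 members higher and 1 lower, with a median of 0.30 (7, 1 and 0.42 with the length trend removed, and none lower as counted without KO library 2). Ethanolamine kinase ETNK1 averaged 55.5 ± 8.18 and 31.0 ± 2.65 CPM (0.84), and CEPT1, which completes both lipids, 47.2 ± 1.40 and 27.6 ± 0.561 CPM (0.77). Choline kinase CHKA differed by 0.89. PTDSS1, a phosphatidylserine synthase that the list also holds, differed by 0.48.

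Calcium genes had no common direction. Of 34 genes of calcium stores and channels, 13 were higher and 13 lower, with a median of -0.15 (12, 10 and -0.03 with the length trend removed). ITPR3, a channel through which inositol trisphosphate empties calcium stores, had 113, 105 and 106 CPM in KO and 371, 423 and 279.8 CPM in OE (-1.73 ± 0.12, adjusted p = 1.26e-09), without overlap. PLCG1, which makes that inositol trisphosphate, fell by 1.48 on the log2 scale. TMCO1, a calcium leak channel of the endoplasmic reticulum, averaged 143 ± 3.06 and 68.0 ± 4.76 CPM (1.07). The calcium pump ATP2A2, the gene of Darier disease, averaged 426 ± 25.9 and 626 ± 27.2 CPM (-0.56, adjusted p = 2.32e-05), but this long transcript differed by only -0.15 with the length trend removed (adjusted p = 0.113). The Golgi pump ATP2C1, the gene of Hailey-Hailey disease, was higher in KO both ways (0.37 and 0.56), and its relative ATP2C2 was lower (-1.39). Control means were 199 CPM for ATP2C1, near OE (190.2 CPM), and 11.6 CPM for ATP2C2, near KO (9.61 CPM). STIM1 averaged 114 and 122 CPM (adjusted p = 0.451) and ORAI1 19.2 and 21.6 CPM (adjusted p = 0.338), and both overlapped. With the length trend removed ORAI1 was called lower (-0.42, adjusted p = 0.0228), but not with GC content removed as well (-0.22, adjusted p = 0.239).

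Calcium-binding S100 genes, which are very short, depended on the treatment of length. As counted, 8 of 12 were higher and 1 lower (median 0.55). With the trend removed, 5 were higher and 4 lower (median 0.10). S100A9, a subunit of the antimicrobial complex calprotectin, passed both ways, with 233, 220.0 and 283 CPM in KO and 30.8, 30.9 and 46.2 CPM in OE (2.75 ± 0.14, 2.07 with the trend removed). S100A6 averaged 1028 ± 92.1 and 211 ± 35.6 CPM (2.28, then 1.76).

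Basal keratinocyte and hemidesmosome genes were mostly lower in KO. Of 30, 20 were lower and 5 higher, with a median of -0.88 (19, 5 and -0.51 with the length trend removed, and 17, 7 and -0.23 with GC content removed as well). They are long, with a median exon length of 7687 bases beside 5087 for all genes tested. COL7A1, the collagen of anchoring fibrils, had 112, 147 and 121 CPM in KO and 644, 614 and 515 CPM in OE (-2.22 ± 0.11). PLEC, the plakin that ties keratins to hemidesmosomes, averaged 532 ± 106 and 2263 ± 239.5 CPM (-2.09), and COL4A1 and COL4A2, the collagen chains of basement membranes, fell by 1.90 and 1.85. In each of the 4 genes the groups did not overlap, and the differences were -1.37 to -1.89 with the length trend removed and -0.88 to -1.41 with GC content removed as well. The 5 genes on the list that were higher, named after their values were seen, were KRT15, TP63, CD151, LAMC1 and NID1.

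Differentiation genes split into those higher and those lower in KO. Of 30 cornified envelope and terminal differentiation genes, 14 were higher and 9 lower (12 and 10 with the trend removed). KRT10, the keratin of the first suprabasal layers, had 122, 92.4 and 101 CPM in KO and 47.1, 37.8 and 46.6 CPM in OE (1.26 ± 0.12). The shedding proteases KLK5 (1278 ± 9.98 against 552 ± 42.6 CPM) and KLK7 (188 to 198 CPM against 50.5 to 81.2 CPM) differed by 1.21 and 1.62. TGM1, the transglutaminase that crosslinks the envelope and an ichthyosis gene, went the other way with 27.2, 27.8 and 22.4 CPM in KO and 112, 109 and 99.6 CPM in OE (-2.04 ± 0.11, adjusted p = 7.89e-11). The envelope plakin EVPL fell by 1.54. IVL was higher as counted (0.49, adjusted p = 7.11e-04), a call lost with the trend removed (0.21, adjusted p = 0.102). KRT1, FLG and LORICRIN had too few reads to test, between 0 and 0.442 CPM in every KO and OE library.

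The 36 genes of barrier lipids and inherited ichthyosis had no common direction, with 13 higher, 10 lower and a median of 0.04 (11 and 12 with the trend removed). Desmosome, adherens and tight junction genes had 19 of 35 lower and 8 higher (15 and 8 with the trend removed). DSP, the desmosomal plakin, averaged 681 ± 56.2 and 2006 ± 319 CPM (-1.56), and the tight junction scaffold TJP1 98.3 ± 1.64 and 226 ± 25.7 CPM (-1.20). GJB2, the gap junction connexin, had 33.0, 33.0 and 41.5 CPM in KO against 76.3, 96.8 and 112 CPM in OE (-1.42), and the control mean of 26.0 CPM lay on the KO side. Among 21 wound and stress keratinocyte genes 12 were lower and 5 higher (12 and 3 with the trend removed). KRT6B had 7.46, 3.36 and 4.56 CPM in KO and 33.9, 38.0 and 42.7 CPM in OE (-2.90 ± 0.21), KRT17 fell by 1.28, and LCN2, an iron-scavenging antimicrobial protein, rose from 9.48 ± 1.07 to 75.8 ± 12.4 CPM (2.99). Keratins of simple and other epithelia were higher, 7 of 10 with 1 lower (6 and 2 with the trend removed, and none lower as counted without KO library 2, KO library 3 or OE library 1), including KRT4 with 154, 144 and 149.7 CPM against 30.9, 23.4 and 26.0 CPM (2.48) and KRT8 (0.77). For KRT4 the control mean was 138 CPM, close to KO.

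Matrix genes differed in both directions. THBS1, a matrix glycoprotein that activates TGF-beta, had 99.4, 113 and 131 CPM in KO and 948, 1191 and 1022 CPM in OE (-3.21 ± 0.12, adjusted p = 4.56e-13), and the control mean of 382 CPM lay between. SERPINE2, a protease inhibitor, averaged 5.64 ± 1.09 and 43.6 ± 7.80 CPM (-2.97), and fibronectin FN1 819 ± 104 and 4031 ± 498 CPM (-2.30). SPARC was higher in KO, with 239, 241 and 243 CPM against 92.1, 89.3 and 92.7 CPM (1.39). Over 34 matrix and mesenchymal genes 7 were higher and 14 lower as counted, and 11 and 12 with the trend removed.

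Most DNA replication genes were lower in KO. Of 39 genes of replication and the G1/S transition, 30 were lower and none higher, with a median of -0.90 beside -0.003 for all genes. With the length trend removed 33 were lower and none higher (median -0.87). In edgeR no gene of this list was higher even at an unadjusted p under 0.05, and DESeq2 and limma-voom called none. UHRF1, which maintains DNA methylation at the fork, had 26.8, 29.9 and 33.3 CPM in KO and 112, 148 and 127 CPM in OE (-2.12 ± 0.12, adjusted p = 1.28e-10). CLSPN, a checkpoint adaptor of the fork, had 3.49, 5.37 and 4.73 CPM against 25.2, 25.5 and 29.0 CPM (-2.55 ± 0.20, adjusted p = 4.26e-09). The polymerase subunit POLE averaged 22.8 ± 2.90 and 72.9 ± 9.47 CPM (-1.68), and the helicase subunit MCM7 109 ± 7.42 and 228 ± 13.7 CPM (-1.06). None of these 4 had overlapping groups. The summed level of the list was 1494 to 1724 CPM in KO, 2482 to 2823 CPM in OE and 1557 to 1695 CPM in control, so control lay with KO.

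The promoters of these genes were searched for the letters TTTGGCGC and TTTCCCGC, forms of the site of E2F factors. The search covered both strands of the 250 bases before the start in RefSeq (GRCh38.p14). Of the 39 genes, 34 matched an entry by symbol, and 15 of these (44.1%) held a match, beside 3.18% of the 9929 promoters of tested genes that matched and 1.96% of all 27305 promoters. Of the 26 matched genes that were lower in KO, 12 held one. These 26 are most of the 34 matched genes, so their share had to lie near that of the list. Whether a match sets the lower genes apart was not tested. The promoters of 3 of the 4 genes just described are printed because they show where the letters lie, which is in capitals. The match starts 14 bases before the start of UHRF1 (chr19:4909251-4909500, plus strand), 18 before that of POLE (chr12:132687343-132687592, minus strand) and 187 before that of MCM7 (chr7:100101398-100101647, minus strand). CLSPN had no match in this window. A match is a description of the sequence and does not show binding.
UHRF1: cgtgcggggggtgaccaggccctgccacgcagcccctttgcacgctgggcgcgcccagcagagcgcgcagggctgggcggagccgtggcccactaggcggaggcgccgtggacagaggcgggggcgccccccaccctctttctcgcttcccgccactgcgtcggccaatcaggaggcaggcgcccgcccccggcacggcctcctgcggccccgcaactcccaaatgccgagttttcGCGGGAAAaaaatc
POLE: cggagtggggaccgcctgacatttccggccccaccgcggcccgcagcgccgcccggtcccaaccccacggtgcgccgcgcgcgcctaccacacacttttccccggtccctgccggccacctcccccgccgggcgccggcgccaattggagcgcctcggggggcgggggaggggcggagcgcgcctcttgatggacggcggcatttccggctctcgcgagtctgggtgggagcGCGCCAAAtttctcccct
MCM7: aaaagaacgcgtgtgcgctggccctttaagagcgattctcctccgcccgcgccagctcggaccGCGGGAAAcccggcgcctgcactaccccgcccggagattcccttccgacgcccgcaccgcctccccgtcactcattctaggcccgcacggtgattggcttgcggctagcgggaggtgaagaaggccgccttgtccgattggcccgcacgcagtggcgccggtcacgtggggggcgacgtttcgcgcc

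Mitosis genes were also mostly lower, with 24 of 39 lower and 1, BIRC5, higher (26 and 3 with the trend removed). Without OE library 3 the number higher was 5, and without KO library 1 or 2 it was 2 or 3. The proliferation antigen MKI67 had 54.2, 64.1 and 71.9 CPM in KO and 271, 326 and 241 CPM in OE (-2.14 ± 0.12), the kinetochore motor CENPE averaged 15.3 ± 1.70 and 74.9 ± 9.13 CPM (-2.30), and the phosphatase CDC25B, which activates mitotic kinases, 74.8 ± 4.47 and 207 ± 3.91 CPM (-1.47). Control means of these genes, 170.4, 54.7 and 111 CPM, lay between the groups. The list summed to 2681 to 3158 CPM in KO, 3987 to 4259 CPM in OE and 2653 to 2829 CPM in control, so control lay with KO.

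Replication-dependent histone genes moved the opposite way to the replication genes. All 14 of the 52 listed genes that could be tested were higher in KO, each at least 2-fold, with a median of 2.46 (also all 14, with a median of 1.87, with the length trend removed). A filter that a gene passes through its high group favours such a result, and the other 38 had too few reads. These mRNAs normally end without a poly-A tail, and the libraries were made from poly-A RNA, so the reads cover the polyadenylated part only. H2AC6 had 78.1, 87.5 and 91.3 CPM in KO and 12.6, 9.76 and 10.6 CPM in OE (2.97 ± 0.13, adjusted p = 5.74e-12), and the linker histone H1-2 had 42.7, 37.9 and 54.7 CPM against 5.85, 4.53 and 7.06 CPM (2.93 ± 0.19). H2BC5 differed by 3.13 and H4C8 by 3.55. The summed level of the list was 284 to 306 CPM in KO, 44.0 to 57.6 CPM in OE and 121 to 155 CPM in control.

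Targets of the tumour suppressor p53 were higher in KO, 19 of 29 with 3 lower, at a median of 0.71 (19, 3 and 0.64 with the trend removed). GDF15, a stress cytokine, had 79.6, 82.2 and 89.5 CPM in KO and 23.3, 27.1 and 23.1 CPM in OE (1.77 ± 0.11), and its control mean was 25.8 CPM. RRM2B, a ribonucleotide reductase subunit used outside S phase, averaged 146 ± 12.6 and 51.2 ± 2.89 CPM (1.51), TP53INP1 92.6 ± 12.9 and 25.4 ± 3.81 CPM (1.87), and the antiproliferative BTG2 363 ± 48.5 and 131 ± 13.4 CPM (1.47). ACER2 of the sphingolipid list is also on this list. The 3 lower genes, named after their values were seen, were PLK3, SFN and GADD45A.

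Antioxidant genes under the regulator NRF2 were higher in 21 of 28 cases and lower in 2 (19 and 2 with the trend removed), with a median of 0.62. AKR1C3, an aldo-keto reductase, had 150.5, 177 and 166 CPM in KO and 32.9, 28.2 and 30.6 CPM in OE (2.42 ± 0.10, adjusted p = 4.82e-12), and its groups did not overlap. Its relative AKR1C1 differed by 1.56, the glutathione peroxidase GPX2 by 2.33 and the conjugate exporter ABCC2 by 2.15. AKR1C genes share near-identical sequence, so their separate counts are uncertain. The 2 lower genes, OSGIN1 and SLC7A11, were named after their values were seen, and SLC7A11 is also on the ATF4 list.

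Serine, one-carbon and amino acid genes of the ATF4 response were lower in KO. Of 27 tested, 16 were lower and 4 higher, with a median of -0.77 (18, 3 and -0.72 with the trend removed). PSAT1, an enzyme of serine synthesis, had 58.8, 58.0 and 63.5 CPM in KO and 228, 294 and 328 CPM in OE (-2.24 ± 0.12, adjusted p = 5.02e-11), with a control mean of 85.4 CPM. The mitochondrial carboxykinase PCK2 had 43.1, 42.3 and 37.3 CPM against 124, 142 and 156 CPM (-1.78), with a control mean of 43.6 CPM. PHGDH, the first enzyme of serine synthesis, averaged 82.6 ± 7.09 and 159 ± 15.2 CPM (-0.95), and its control mean of 81.5 CPM also lay with KO. The tRNA synthetase GARS1 fell by 1.58 and the amino acid transporter SLC7A5 by 1.27. ATF4 mRNA itself did not pass (0.10), and the 4 higher genes, named after their values were seen, were ATF3, DDIT3, CHAC1 and SESN2. None of the 22 members with a RefSeq promoter held the letters TGATGNAAT, a form of the amino acid response element. Of the promoters of tested genes, 0.413% held them. Letters with another last base were not searched, and the 250 bases before the start of ASNS hold TGATGAAAC. The lack of a match thus does not show that these promoters lack the element. The unfolded protein response list was even, with 8 higher and 8 lower of 26 (8 and 9 with the trend removed, and 5 lower as counted without OE library 2).

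**Figure D3:**
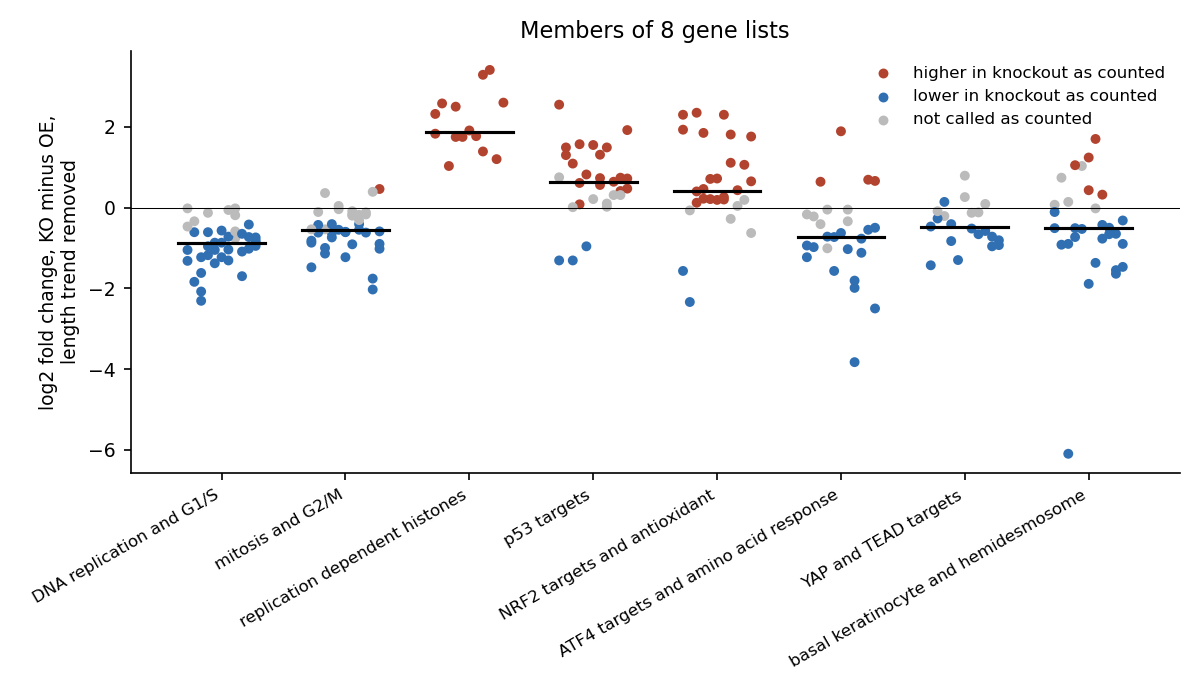
Each point is a tested gene, at its log2 difference of KO minus OE with the length trend removed, coloured by its call as counted, and black bars are list medians. Replication genes lie at or below 0 with a median of -0.87 and all 14 histone genes lie above 0 with a median of 1.87.

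Targets of the YAP and TEAD factors, which respond to cell spreading and tension, had 14 of 21 lower and none higher (13 and none with the trend removed). The count of higher genes was also 0 at an unadjusted p under 0.05 in edgeR and with DESeq2 or limma-voom. TEAD1 averaged 90.4 ± 8.60 and 221 ± 31.1 CPM (-1.28) and the membrane protein MYOF 563 ± 54.6 and 1221 ± 126 CPM (-1.12), while CCN2 did not pass (0.49). Genes of EGFR and MAPK signalling had 16 of 34 lower and 7 higher, both ways, and 4 higher without KO library 1 or OE library 2. EGFR averaged 199 ± 9.81 and 405 ± 48.6 CPM (-1.02), and the MAPK phosphatase DUSP4 149 ± 2.43 and 223 ± 3.69 CPM (-0.59). The immediate early gene FOS went against them, with a mean of 110.0 ± 8.71 CPM (SD, n = 3, the highest 115) in KO and 13.5, 11.1 and 13.9 CPM in OE (3.09 ± 0.12, adjusted p = 1.55e-12). EGR1, another immediate early gene, had 95.9, 109.8 and 110.2 CPM against 24.4, 28.2 and 24.0 CPM (2.04 ± 0.11). The control mean of FOS was 14.7 CPM, near OE, and that of EGR1 was 14.8 CPM, below both lines. Notch genes had 4 higher and 5 lower of 17 (7 and 5 with the trend removed, and 2 higher as counted without KO library 1 or OE library 3), and NOTCH1 fell by 0.76 as counted, a call that was lost when length and GC content were removed together (-0.02).

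Lysosomal genes were higher in KO, 23 of 41 with 5 lower, at a median of 0.43 (24, 5 and 0.50 with the trend removed). The protease cathepsin H, CTSH, had 217, 219 and 248 CPM in KO and 30.2, 23.3 and 28.3 CPM in OE (3.06 ± 0.11, adjusted p = 4.56e-13), and its control mean was 48.5 CPM. NPC2, which moves cholesterol out of lysosomes, averaged 224 ± 3.58 and 102 ± 9.63 CPM (1.13), and ATP6AP2 of the proton pump 249.9 and 106 CPM (1.24). Of 33 fatty acid genes 16 were higher and 11 lower (15 and 10 with the trend removed). The oxidation enzymes ACADM (175, 173 and 192 CPM against 58.0, 51.2 and 45.7 CPM, 1.80) and HADHB (1.16) and the desaturase FADS1 (1.90) were higher. Control means were 102 CPM for ACADM and 145 CPM for HADHB. That of FADS1 was 51.5 CPM, nearer to KO (67.0 CPM) than to OE (18.0 CPM). FASN, the fatty acid synthase, was lower (583 ± 14.5 against 1463 ± 184 CPM, -1.33). Cholesterol genes were even, with 9 higher and 9 lower of 26 (7 and 9 with the trend removed), of which SC5D rose by 1.25. Glycolysis and hypoxia genes had 12 of 33 higher and 10 lower (12 and 8 with the trend removed, 13 and 6 with GC content removed as well). ADM, a vasodilator peptide induced by hypoxia, averaged 95.2 ± 7.50 and 26.9 ± 1.05 CPM (1.82), while the hexokinase HK2 (-1.21) and the phosphofructokinase PFKP (-0.82) were lower.

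Interferon and antigen presentation genes were more often higher than lower in KO, beside 28.2% higher and 28.5% lower among all genes tested. Among 33 interferon stimulated genes 12 were higher and 3 lower (12 and 4 with the trend removed, and 1 lower as counted without KO library 3), with TRIM22 (1.14), IFITM2 (1.45) and OAS1 (1.21) higher and OAS3 (-1.10) lower. Of 15 MHC class I and antigen presentation genes 7 were higher and 3 lower (6 and 4 with the trend removed). B2M, the light chain of MHC class I, had 663, 653 and 684 CPM in KO and 226, 206 and 267 CPM in OE (1.51 ± 0.10), and the immunoproteasome subunit PSMB8 averaged 92.2 ± 8.97 and 32.4 ± 3.93 CPM (1.51). Of 13 cytokine and NF-kB genes 4 were higher, IL33 (4.32), TNFAIP2 (2.41), IL18 (1.33) and NFKBIA (0.59), a share near that of all genes, and 2 were lower (6 and 2 with the trend removed, and 1 lower as counted without KO library 1 or OE library 2).

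Genes of protein synthesis and mitochondrial respiration were higher in KO as groups. Of 78 cytosolic ribosomal protein genes, 75 were higher and none lower, 67 of them at least 2-fold, with a median of 1.32 (75, none and 1.11 with the length trend removed). At an unadjusted p under 0.05 edgeR had 1 lower, DESeq2 and limma-voom called none lower, and 1 was lower without KO library 2 or OE library 1. Their summed level was 111859 to 123055 CPM in KO, 41751 to 54295 CPM in OE and 47278 to 54937 CPM in control. RPL37 averaged 1068 ± 111 and 317 ± 50.4 CPM (1.75), RPS26 564 ± 17.2 and 218 ± 17.5 CPM (1.37) and RPL39 652 ± 63.2 and 181 ± 41.4 CPM (1.84). These genes have many processed copies, which the counting could not separate with certainty. Of 73 nuclear genes of oxidative phosphorylation 65 were higher and none lower, with a median of 0.97 (63, none and 0.73, and none lower at an unadjusted p under 0.05 or with the other tools, but 1 without any 1 KO library or OE library 2), for example NDUFB5 of complex I, with 193, 194 and 219.8 CPM against 62.2, 55.6 and 70.7 CPM (1.68 ± 0.10). Proteasome genes had 21 of 35 higher and 3 lower (19 and 4 with the trend removed, and 5 lower as counted without OE library 3). Respiratory and ribosomal protein genes are short, with median exon lengths of 2324 and 3030 bases.

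The 13 mRNAs that mitochondria encode did not follow the nuclear respiratory genes. As counted 8 were lower and 2, MT-ND3 and MT-CO3, higher. With the trend removed 12 were lower and none higher, since they are short. MT-ND4 had 763, 1237 and 1349 CPM in KO and 1719, 1982 and 1904 CPM in OE (-0.75 ± 0.15, -1.19 with the trend removed). KO library 1 stood low, and mitochondrial genes took 0.889% of its counts against 1.22% to 1.41% in the other 5 KO and OE libraries. The control libraries lay above both groups, at 1.84% to 2.04%. Without KO library 1, 5 were lower as counted. The number higher as counted was 0 without KO library 3 and 1 without OE library 1 or 2.

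Long chromatin genes were mostly lower in KO. Of 38 chromatin and transcription genes with very long transcripts, at a median exon length of 14004 bases, 37 were lower and none higher (also at an unadjusted p under 0.05 and with DESeq2 and limma-voom), with a median of -0.94. This list was chosen for its long transcripts, so its count is not independent of the length trend, and 51.0% of the longest decile was lower with a median of -0.41. With the trend removed 30 of the list were lower and none higher (median -0.55), and with GC content removed as well 26 and none (median -0.39). The ubiquitin ligase HUWE1 had 168, 187 and 195 CPM in KO and 557, 607 and 439 CPM in OE (-1.54 ± 0.11, -1.08 with the trend removed), and the remodelling ATPase SMARCA4 differed by -1.21 and -0.77.

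**Figure D4:**
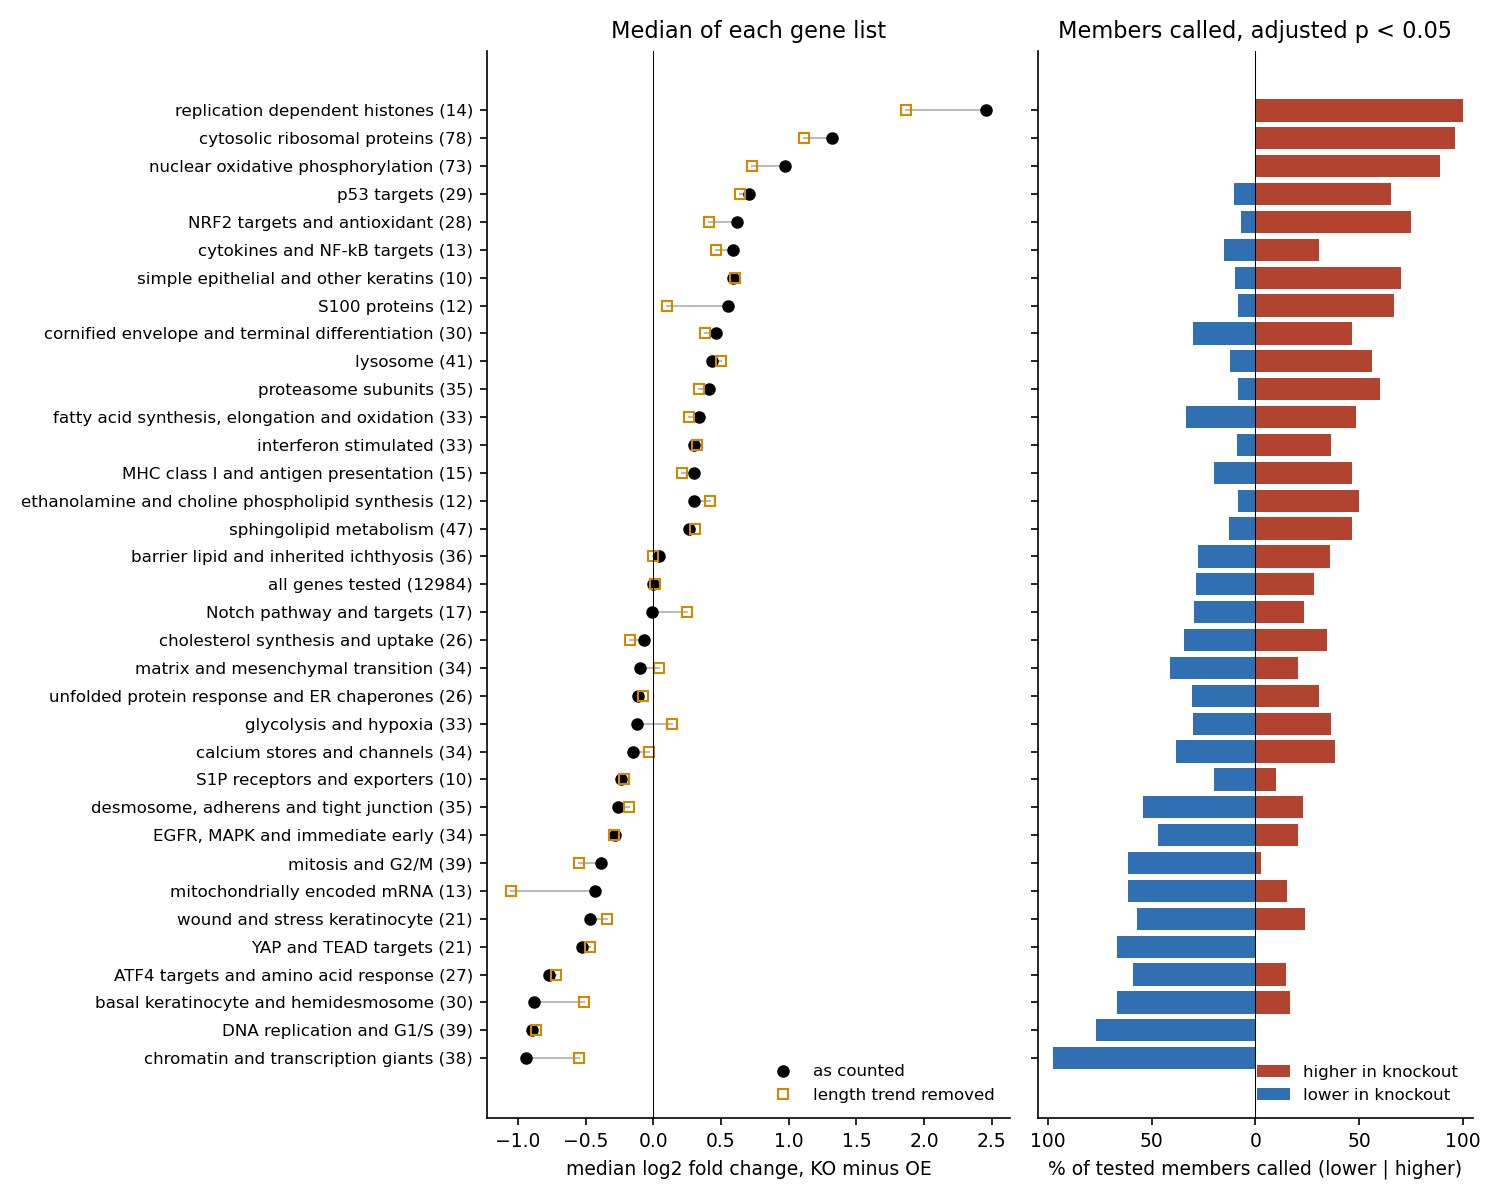
Left, the median log2 difference of KO minus OE for each list with at least 10 tested genes (number in brackets), as counted (circles) and with the length trend removed (open squares). Right, the share of tested members called higher (red) or lower (blue) in KO at an adjusted p under 0.05. Histone, ribosomal protein and respiratory genes lie at the top with medians of 2.46, 1.32 and 0.97, and replication genes and long chromatin genes at the bottom with -0.90 and -0.94.

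Medians also varied along chromosomes. Over successive windows of 10 megabases with at least 20 tested genes, the highest median was on chromosome 5 from 40000001 to 50000000, where 15 of 22 tested genes were higher in KO and none lower (median 0.75, or 0.82 with the length trend removed). Next came chromosome 1 from 230000001 to 240000000 with 22 of 39 higher and 8 lower (0.52 and 0.50), chromosome 5 from 1 to 10000000 with 16 of 32 higher and 3 lower (0.51 and 0.46), and chromosome 5 from 30000001 to 40000000 with 18 of 28 higher and 3 lower (0.48 and 0.63). Over the whole of chromosome 5, 226 of 593 genes were higher and 123 lower. The lowest median as counted was on chromosome 4 from 120000001 to 130000000, with 10 of 25 lower and 4 higher (-0.41 and -0.35). It was followed by chromosome 16 from 70000001 to 80000000 with 20 of 46 lower and 7 higher (-0.40 and -0.20). Chromosome 1 from 1 to 10000000 had 51 of 105 lower and 15 higher (-0.36 and -0.32). These stretches were named after their values were seen.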

How the data were processed

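Poly-A RNA of N/TERT keratinocytes was sequenced as paired 150-base reads, per the labels' protocols. The deposited values are whole-number counts per gene, not normalized. The authors made these counts with featureCounts 1.5.2 against Ensembl release 101, per the file headers. The submitters' processing notes name GRCh38, FastQC, HISAT2 1.03, featureCounts 0.1.0 and DESeq2. No option for read pairs or strand stands in the headers' command, so mates may be counted separately and overlapping or antisense genes cannot be told apart.

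The 3 KO and 3 OE libraries, grouped by title and genotype, were fitted with edgeR 4.0.16 in R 4.3.3 (filterByExpr with a minimum count of 10, TMM, a quasi-likelihood test with group as the only term, two-sided, Benjamini-Hochberg over 12984 genes). The common biological coefficient of variation was 11.1%. Printed CPM are scaled by TMM over all 9 libraries. The length trend was a loess curve (span 0.3) of each library's log2 CPM, with a prior count of 2, over log2 exon length, relative to the mean of the 6 libraries, entered as an offset. GC content and gene types came from GENCODE release 29 by gene identifier. DESeq2 1.42.0, limma-voom (limma 3.58.1), other scalings, filters, thresholds and offsets, a replicate block and leaving out each library were alternatives. The fits were tested on simulated data. Replicates differed by more than sampling noise (chi-square per degree of freedom 4.43 to 11.9). Limits for genes without reads used 3 counts over the group, and intervals of ratios are exact 95% intervals. Both cover counting error only, since reads are not independent molecules.

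Named genes were SGPL1, the 10 largest rises and 10 largest falls among protein-coding genes (passing in both fits, at least 5 CPM in the higher group, no overlap), the 6 largest CPM gains and losses, a fixed set of S1P, calcium and differentiation genes, and up to 4 genes of each list by smallest p. Other genes were named after their values were seen. Some genes that the rule picks are not reported here. The comparison, the 37 gene lists and the tests were chosen with earlier results of these data known. No list was given a p value.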

Additional observations from a re-analysis of the deposited data

How the results depend on the processing

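Counts of differing genes stayed within 1.5 times of their main values under other scalings, filters, tools, a threshold of 0.01 and all 9 libraries in the fit, and only a test against a fold of 1.5 moved them, to 1384 higher and 1289 lower in KO. Leaving out each library in turn gave 3207 to 3671 genes higher and 3208 to 3686 lower. With the length trend removed the medians of the shortest and longest decile of genes were 0.05 and -0.00, and with length and GC content removed 0.07 and -0.03, by construction. The numbers in the titles are not said to pair the libraries. Same-numbered KO and OE libraries deviated together at r = 0.0315, 0.0401 and 0.0788. Pairs with different numbers lay at r = -0.0971 to 0.0629, so these values do not settle whether the libraries are paired. With the number as a replicate block 3756 genes were higher and 3829 lower and SGPL1 differed by -4.15, and with the block and the length trend removed together 3781 and 3465, and -4.00. Of the 171 named genes that passed, none changed sign in any alternative, none lost its call without 1 library, and 4 (SPHK2, ATP2A2, IVL and NOTCH1) lost it under removal of length or of length and GC content. Of 70 counts over gene lists, 49 moved by over 1.5 times in the test against a fold of 1.5, 14 with length and GC content removed, 10 with length removed, 10 at a threshold of 0.01, 3 to 6 without 1 library and none with DESeq2 or limma-voom. Signs changed only among named genes that had not passed. S1PR3 turned to 0.16 with length, 0.24 with length and GC content and 0.14 with block and length. S1PR5 turned to -0.09 with length, -0.08 with block and length, and ranged from -0.07 to 0.21 without 1 library. STIM1 turned to 0.05, 0.26 (adjusted p = 0.0146) and 0.05 in the same settings as S1PR3, and UGCG to -0.05 with length and GC content. The cause was not tested. A count of 3 in a library stood for 0.225 to 0.475 CPM, so genes below that level cannot be compared.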
